A study of Mus musculus with 8 samples.

Results

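The genes described here encode the axoneme of motile cilia and the factors that switch those genes on. A list of 39 genes was drawn up by name, from the regulator Foxj1 to the membrane protein gene Tmem212. The rule used no measured value, but the list was chosen with earlier results of these data known. Of the 39 genes, 37 were in the gene count tables, out of 24062 genes in all, and Dnah3 and Dnah12 were not analysed here. All 37 passed the filter on low counts, which left 15789 genes to test.

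Motile cilia beat by means of dynein motor arms that slide the outer microtubule doublets of the axoneme past each other. Radial spokes and a central apparatus control that sliding, and docking and ruler proteins fix where the arms sit. In the hindbrain such cilia are carried by the ependymal cells that line the fourth ventricle and by the epithelium of the choroid plexus, and the transcription factors Foxj1, Rfx2 and Rfx3 drive the axonemal genes.

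RNA was measured by polyA sequencing of whole cerebella, each from 1 pup at postnatal day 2, in 4 mutants and 4 control littermates of a mixed C57BL/6 strain. Mutants were Math1-Cre; Sufu flox/-, so all their cells lacked 1 allele of Sufu, a negative regulator of Hedgehog signalling, and cells with Cre could lose the other. Controls were Sufu flox/+, and the labels do not say if any of them had Cre. One parent of the cross was homozygous for both the floxed allele and Math1 mgfp, so pups of either group would inherit 1 copy of each. Math1-Cre acts in the lineage of cerebellar granule neurons, which do not carry motile cilia. In such whole tissue, fewer cells of a type and less RNA per cell cannot be told apart.

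Library titles carry a letter, R or P, whose meaning is not stated. Each letter is shared by 2 mutants (mutants 3 and 4 for R, mutants 1 and 2 for P) and 2 controls (controls 3 and 4 for R, controls 1 and 2 for P). Between 21479565 and 26638284 reads were assigned to genes in a library, of which 6544 to 11709 fell on the members. The share of entries outside unique gene counts was 24.8 to 26.3% in R libraries and 30.1 to 34.3% in P libraries. Sufu averaged 35.7 ± 3.45 CPM (gene counts scaled to a common library size with TMM factors) in mutants and 53.8 ± 5.72 CPM in controls (SD, n = 4 each), with no overlap (log2 fold change -0.59, SE 0.11; edgeR adjusted p = 0.381; DESeq2 adjusted p = 0.00121). All 10 listed genes of the granule neuron lineage were detected in every library. Of these, 7 were higher in mutants at an unadjusted edgeR p under 0.05, where 6.94% of all genes were. The median log2 fold change of the 10 was 0.44, with Nhlh1 at 0.70 and Mfap4 at 0.82. The 12 Hox genes of the adjacent hindbrain summed to 172, 64.0, 98.1 and 6.58 CPM in mutants 1 to 4, against 133, 119, 210 and 191 CPM in controls 1 to 4, and all 12 had lower means in mutants. Mutant 4 was the lowest library by far. Of 8 meningeal markers, 2 had higher and 6 lower means in mutants, with a median log2 fold change of -0.10. The 2 with the smallest p were Crabp2 at -0.74 and Aldh1a2 at -0.57, and in both the groups overlapped. Aldh1a2 had 21.2, 45.8, 47.7 and 22.1 CPM in controls 1 to 4, against 19.7 to 25.6 CPM in mutants. The part of these cell types in the values of the cilium genes was not tested.

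None of the motile cilium genes passed the test of mutants against controls after adjustment over all genes. By edgeR's quasi-likelihood test, 0 of 37 had an adjusted p under 0.05, where the share over all genes tested was 0%, and the lowest adjusted p among them was 0.381. With DESeq2, 0 of 37 were called higher or lower, where 0.248% of all genes were called higher and 0.0745% lower. Means leaned upward by a small amount: 31 of the 37 were higher in mutants, against 52.3% of all genes, and their median log2 fold change was 0.20 beside 0.01 for all genes. That median was 0.35 without control 1, 0.13 without mutant 3, 0.10 without control 3 and 0.11 without control 4. At an unadjusted p under 0.05, 4 members (10.8%) were higher in mutants and 0 lower, where 6.94% of all genes were higher and 5.7% lower. Only Spag16 had groups that did not overlap, 1 of 37, where 3.6% of all genes were higher without overlap and 2.96% lower. By these call rules the members' shares were close to those of all genes, and the direction of the means was where they differed most. The count of 4 was 12 (background 3.7% of all genes) without control 1. It was 2 without mutant 2 (background 5.68%), mutant 4 (3.01%) or control 3 (4.09%), and 1 without control 4 (5.64%). With the title letter as a replicate block it was 6, where 9.89% of all genes were higher.

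Of the transcription factors, Foxj1, the master regulator of motile ciliogenesis, stood at 28.0, 34.4, 47.1 and 42.3 CPM in mutants 1 to 4 and at 47.3, 29.6, 26.5 and 29.1 CPM in controls 1 to 4. The groups overlapped: control 1 was the highest of all 8 libraries, and the other 3 controls lay with mutant 1 at the low end. The log2 fold change was 0.19 (SE 0.21), and it ran from 0.074 without mutant 3 to 0.42 without control 1 when 1 library was left out. Rfx2, a winged-helix factor that binds the X-box element of ciliary promoters, had 9.49, 11.6, 11.3 and 11.8 CPM in mutants, against 7.90, 8.66, 10.1 and 8.36 CPM in controls. Of the mutants, 3 lay above every control, and the log2 fold change was 0.33 (SE 0.13; edgeR adjusted p = 0.386). Rfx3, a related factor that also acts on primary cilia, had 83.5, 70.2, 67.5 and 86.1 CPM in mutants, against 64.7, 73.5, 48.7 and 53.6 CPM in controls. Its log2 fold change of 0.35 (SE 0.14; edgeR adjusted p = 0.386) came with overlap in the middle of the range.

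**Figure D1:**
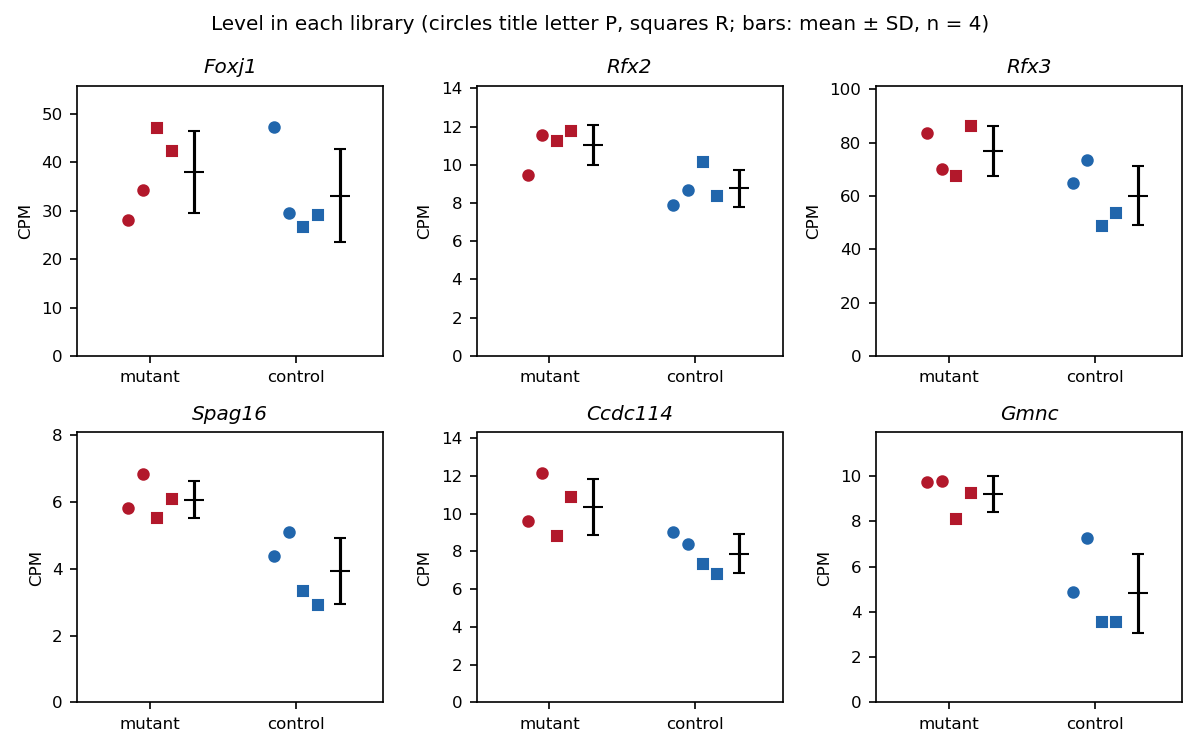
Level in CPM (y axis, from 0) in each mutant (left, red) and control (right, blue) library for 6 genes, with circles for title letter P, squares for R, and bars for mean ± SD (n = 4). Spag16 and Gmnc have no overlap between groups, while Foxj1 overlaps, with control 1 at 47.3 CPM.

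Dynein heavy chains, the motor subunits, had no common direction: 5 of 8 means were higher in mutants and none differed at an unadjusted p under 0.05. Among those of the outer arm, Dnah11, which sits in the part of the axoneme near the cell, had 6.91, 10.9, 6.85 and 8.18 CPM in mutants and 8.56, 6.28, 4.34 and 3.94 CPM in controls. It averaged 8.21 ± 1.90 CPM in mutants and 5.78 ± 2.11 CPM in controls (SD, n = 4 each), a log2 fold change of 0.50 (SE 0.25; edgeR adjusted p = 0.416). Dnah9, its counterpart in the outer part, had 17.4, 18.4, 14.2 and 13.9 CPM in mutants and 18.7, 14.6, 12.4 and 9.72 CPM in controls. Its log2 fold change was 0.20 (SE 0.19). Both genes were higher in P than in R libraries of their group, apart from mutant 4 over mutant 1 in Dnah11. Dnah5, whose loss is a common cause of immotile cilia in humans, had 5.07, 4.38, 3.58 and 4.27 CPM in mutants and 7.94, 4.53, 2.24 and 5.07 CPM in controls, a log2 fold change of -0.20 (SE 0.31). Dnah8, a heavy chain best known from sperm flagella, had 2.97, 3.95, 1.77 and 1.23 CPM in mutants and 2.05, 1.76, 3.75 and 6.67 CPM in controls. Its high libraries were P among mutants and R among controls, and the pooled log2 fold change was -0.51 (SE 0.46). For the inner arm, Dnah6 had 22.6, 29.1, 17.4 and 20.7 CPM in mutants against 24.2, 21.1, 12.1 and 10.6 CPM in controls, a log2 fold change of 0.40 (SE 0.26). Dnah1 stood at 0.22 (SE 0.17), and Dnah2 and Dnah10, the paired heavy chains of one inner arm dynein, at 0.03 (SE 0.19) and -0.02 (SE 0.21).

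The smaller dynein chains had log2 fold changes of -0.09 (SE 0.18) for Dnaic1 and 0.12 (SE 0.20) for Dnaic2, intermediate chains of the outer arm, and 0.22 (SE 0.23) for Dnali1, a light intermediate chain of the inner arm. Radial spoke head genes split as well. Rsph4a averaged 8.49 ± 1.11 CPM in mutants and 7.18 ± 2.26 CPM in controls (SD, n = 4 each), a log2 fold change of 0.24 (SE 0.21). Here too the R controls were the lowest, at 5.53 and 5.21 CPM. Rsph1 stood at 0.18 (SE 0.17). Rsph9 had 10.5, 8.64, 11.8 and 8.74 CPM in mutants and 13.7, 13.9, 11.2 and 8.22 CPM in controls, a log2 fold change of -0.25 (SE 0.18). In Rsph9 the P controls were the high libraries.

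The largest difference among the members was in the central apparatus. Spag16, the mouse counterpart of the algal protein PF20, had 5.82, 6.83, 5.53 and 6.10 CPM in mutants 1 to 4, against 4.38, 5.11, 3.34 and 2.91 CPM in controls 1 to 4. Every mutant lay above every control, and the log2 fold change was 0.62 (SE 0.19; edgeR adjusted p = 0.381; DESeq2 adjusted p = 0.153). The difference had the same sign within both title letters, at 0.87 in R and 0.41 in P, and ranged from 0.50 to 0.75 when any 1 library was left out. Hydin, a very large protein of a central pair projection whose loss causes hydrocephalus in mice, had 6.39, 8.64, 9.06 and 11.7 CPM in mutants and 12.3, 6.71, 4.89 and 5.49 CPM in controls. Control 1 again stood above all mutants, and the other 3 controls below every mutant, save control 2 over mutant 1. Spag17, a large central apparatus protein, averaged 3.36 ± 0.827 CPM in mutants and 2.44 ± 0.905 CPM in controls (SD, n = 4 each), and Hydin 8.94 ± 2.17 and 7.35 ± 3.39 CPM in mutants and controls. Spag6 stood at a log2 fold change of 0.01 (SE 0.15), which turned to -0.00219 with DESeq2. The Spag6 counted here lies on chromosome 16, which RefSeq lists as Spag6l with a gene named Spag6 on chromosome 2, so reads shared by such near copies may be lost or split.

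Along the exon bins of Spag16, a separate deposited count of the same libraries, reads were concentrated in 1 bin. Bin 11 of 19 held 32.2% of the gene's bin counts, with 3.64 ± 0.476 CPM in mutants and 2.11 ± 0.843 CPM in controls (SD, n = 4 each). All 8 bins with a mean of at least 10 reads were higher in mutants, at 1.21 to 1.73 times the control level. Bins 12 to 19 averaged between 0 and 4.5 reads each, so the later part of the gene was thinly read. No difference in bin use was called for a member. Of 31 with enough reads, 0 had a Simes adjusted p under 0.05, where 1 of 13358 genes (0.00749%) did, and 0 had an unadjusted Simes p under 0.05, where 0.21% of genes did. In Dnah6, with 77 bins, all 77 had a count, 57 had a mean of at least 10 reads and 53 of those were higher in mutants, whereas in Dnah2 46 bins of 86 had that depth and 23 were higher. In Rsph9 all 5 bins were lower, at 0.80 to 0.868 of the control level.

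Tektins, filament proteins of the doublet microtubules, stood at log2 fold changes of 0.22 (SE 0.18) for Tekt1, 0.17 (SE 0.28) for Tekt4 and -0.04 (SE 0.14) for Tekt2. Among docking, ruler and linker genes, all 6 had higher means in mutants. Ccdc114, a subunit of the complex that docks the outer arm, had 9.58, 12.2, 8.80 and 10.9 CPM in mutants, against 9.02, 8.39, 7.31 and 6.81 CPM in controls. Of the mutants, 3 exceeded all controls, and the log2 fold change was 0.39 (SE 0.15; edgeR adjusted p = 0.381). Armc4 and Ccdc151, which belong to the same docking complex, stood at 0.43 (SE 0.27) and 0.28 (SE 0.17). Ccdc39 and Ccdc40, which together form the ruler that sets the spacing of arms and spokes, had differences near 0, at 0.06 (SE 0.17) and 0.00318 (SE 0.14), and the sign for Ccdc40 turned with DESeq2 to -0.0073. Ccdc113, a linker protein, stood at 0.20 (SE 0.22).

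Genes for assembly of the arms in the cytoplasm, Lrrc6 and Zmynd10, had close means. Zmynd10 had 5.12, 6.32, 6.45 and 6.28 CPM in mutants and 8.05, 5.03, 4.52 and 4.46 CPM in controls, with control 1 the highest library. Lrrc6 and Zmynd10 had log2 fold changes of 0.22 (SE 0.27) and 0.13 (SE 0.20). The remaining members were Enkur and Wdr16, proteins inside the doublet microtubules, Ak7, an adenylate kinase of the axoneme, and Mlf1 and Tmem212. Their log2 fold changes lay between 0.10 (SE 0.20) for Mlf1 and 0.22 (SE 0.22) for Ak7. Ak7 had 7.22, 7.13, 8.80 and 9.11 CPM in mutants and 10.3, 6.60, 4.80 and 6.01 CPM in controls. Wdr16 had 4.99, 5.84, 6.06 and 5.95 CPM in mutants and 6.89, 5.58, 4.16 and 3.80 CPM in controls. In both genes control 1 was the highest library and the other controls lay below every mutant, save control 2 over mutant 1 in Wdr16. Enkur had 7.04, 7.43, 7.03 and 7.06 CPM in mutants and 8.09, 7.38, 4.43 and 4.74 CPM in controls. Its mutants were nearly equal, control 1 lay above them all, control 2 above all but mutant 2, and the R controls below them all.

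**Figure D2:**
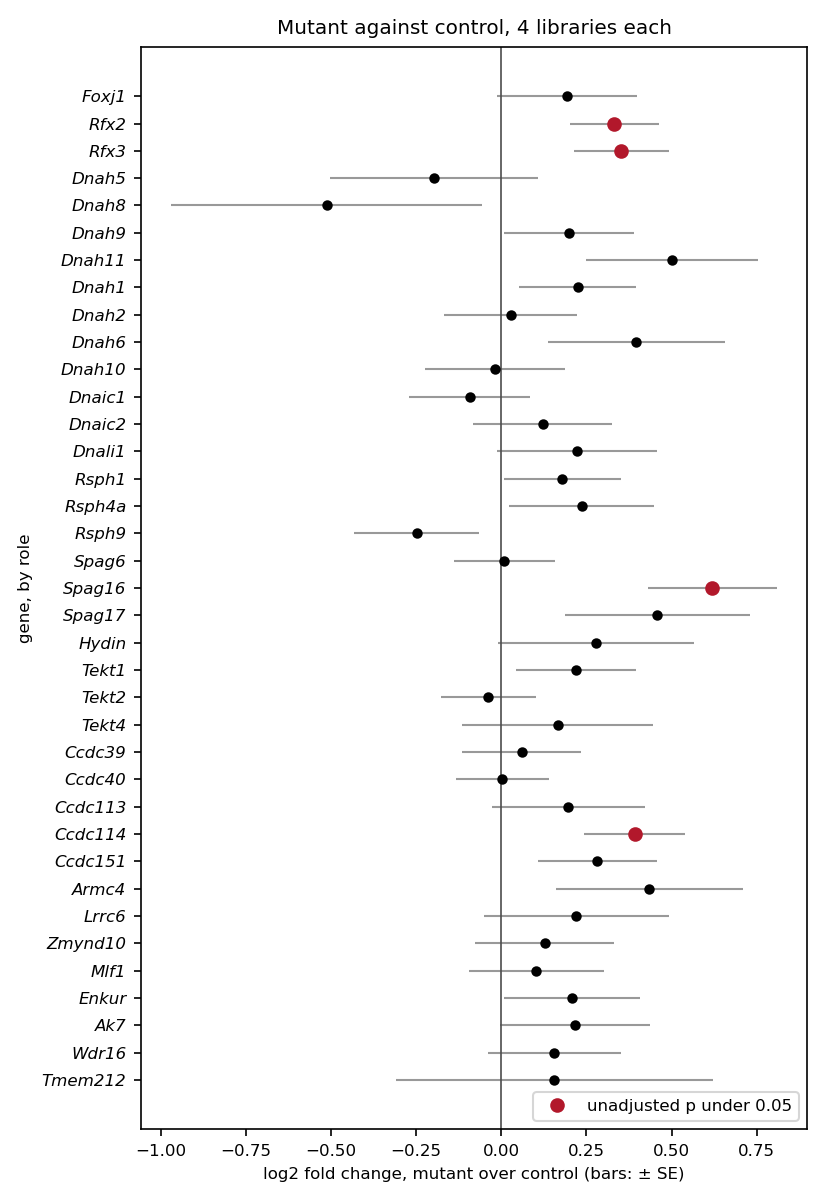
Log2 fold change of mutant over control (x axis) for each of the 37 genes, ordered by role down the page, with bars for ± SE and red points for an unadjusted p under 0.05. The points lie between -0.51 (Dnah8) and 0.62 (Spag16), and 4 are red.

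The members varied more among controls than among mutants, and control 1 stood apart. Summed over the 37 genes, the level was 401, 424, 406 and 422 CPM in mutants 1 to 4 and 453, 379, 307 and 307 CPM in controls 1 to 4. The mean was 413 ± 11.6 CPM in mutants and 362 ± 69.8 CPM in controls (SD, n = 4 each), and control 1 lay above every mutant while the other 3 controls lay below them. The transcription factors Foxj1, Rfx2 and Rfx3 made up 126 ± 10.4 CPM of that sum in mutants and 102 ± 16.5 CPM in controls. In 16 of 37 members (43.2%) control 1 was the highest of all 8 libraries, where this held for 10.4% of all genes. It was the highest of the controls in 28 of 37 (75.7%), where 19.8% of all genes had it so. Without control 1, 12 members were higher in mutants at an unadjusted edgeR p under 0.05, where 3.7% of all genes were. The lowest adjusted p among the members was then 0.649. Control 1 was singled out by the same values, so this count is not separate support for a difference. Leaving out any other single library gave 1 to 4 members.

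**Figure D3:**
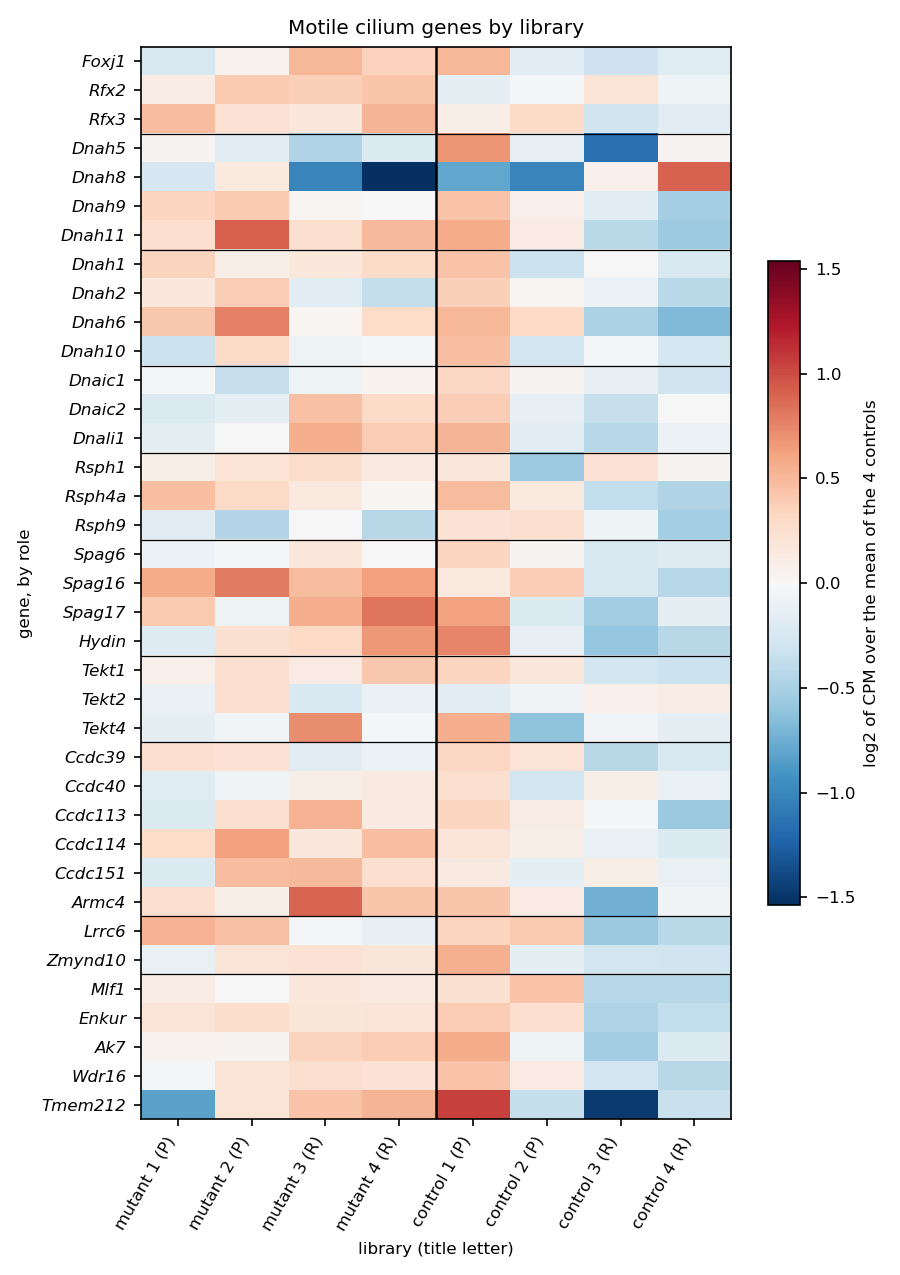
Level of each of the 37 genes (rows, by role) in each library (columns, 4 mutants left and 4 controls right, title letter in brackets), as the log2 of its CPM over the mean of the 4 controls. The column of control 1 is mostly red and those of controls 3 and 4 mostly blue, while the mutant columns lie closer together, with Dnah8 apart.

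The genotype difference took other values within each title letter. Within R, 34 of 37 members had higher means in mutants and their median log2 fold change was 0.47, where 51% of all genes were higher and the median of all was 0.01. Within P, 15 of 37 were higher and the median was -0.10, where 49.5% of all genes were higher. At an unadjusted edgeR p under 0.05 within R, 19 members (51.4%) were higher, where 14.1% of all genes were, and 1 lower, where 16.1% were. Within P, 1 member was higher and 1 lower, where 5.57% of all genes were higher and 8.34% lower. Adjusted over all genes, 0 of 37 passed within R (lowest edgeR adjusted p = 0.0911) or within P (0.214), where 0.00635% and 0.0313% of all genes did. Each of these subsets holds 2 mutants against 2 controls.

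Tested directly as an interaction of genotype and letter, the effect was more positive in R than in P for 32 of 37 members, where 51.9% of all genes had that sign. With an unadjusted edgeR p under 0.05 there were 14 members (37.8%), where 12.2% of all genes had such an interaction, and 1 with a more negative effect, where 10.2% did. After adjustment over all genes, 2 members passed, where 3.2% of all genes did. Mlf1, at 12.2, 11.4, 12.6 and 12.4 CPM in mutants and 13.2, 15.3, 8.32 and 8.31 CPM in controls, had a log2 fold change of 0.56 in R and -0.28 in P (interaction edgeR adjusted p = 0.0471). Its 4 mutants were alike, and the R controls lay well under the P controls. Dnah8 went the other way, at -1.83 in R and 0.86 in P (interaction edgeR adjusted p = 0.0309). For Foxj1 the values were 0.66 in R and -0.31 in P (interaction adjusted p = 0.0949), and for Hydin 0.97 in R and -0.35 in P (adjusted p = 0.10).

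The letter split lay mainly in the controls. Both R controls were below both P controls in 23 of 37 members (62.2%), where this held for 29.4% of all genes, and above them in 2 (5.41%), where this held for 30.4%. Among the mutants both R libraries were below both P libraries in 9 of 37 (24.3%) and above them in 13 (35.1%), where 27.3% and 30.3% of all genes had these orders. The letter also goes with the share of entries outside unique gene counts given above, and its part in these values was not tested.

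**Figure D4:**
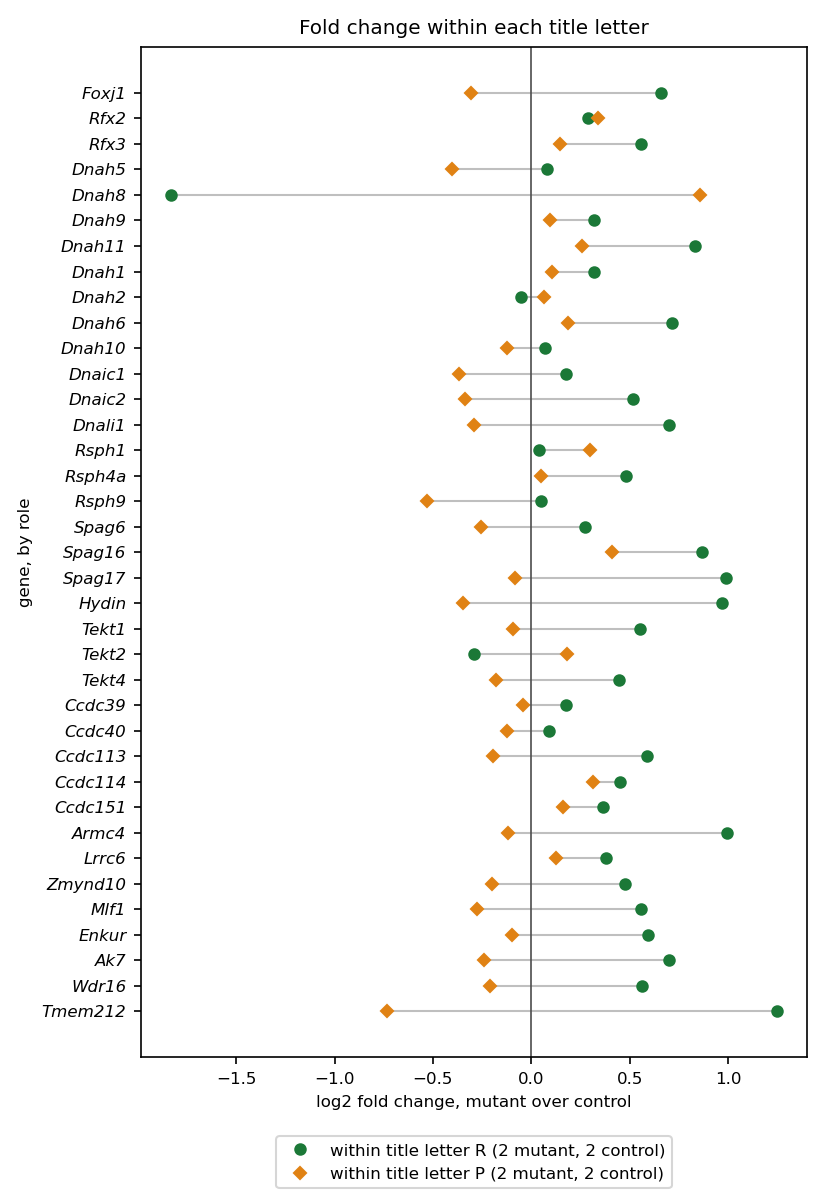
Log2 fold change of mutant over control (x axis) within title letter R (green circles) and within P (orange diamonds), 2 mutants against 2 controls each, for the 37 genes by role. Green points lie to the right of 0 for 34 genes and orange points for 15, and Dnah8 is reversed at -1.83 in R and 0.86 in P.

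Beyond the members, 83 other genes of motile cilia and of the multiciliated cell programme were in the tables and 78 passed the low-count filter. Of these, 57 had higher means in mutants, where 52.3% of all genes did, with a median log2 fold change of 0.13. Their mean log2 level, less the mean of controls, was 0.022, 0.11, 0.21 and 0.14 in mutants 1 to 4. In controls 1 to 4 it was 0.26, 0.051, -0.15 and -0.16, so the R controls were the lowest, as for the members. Of the 78, 0 passed over all genes with edgeR. At an unadjusted edgeR p under 0.05, 6 (7.69%) were higher and 4 lower, near the 6.94% and 5.7% of all genes. Gmnc, the geminin relative that starts the multiciliated cell programme upstream of Foxj1, had 9.75, 9.80, 8.09 and 9.26 CPM in mutants, against 4.88, 7.26, 3.56 and 3.57 CPM in controls. The groups did not overlap, and the log2 fold change was 0.93 (SE 0.22; edgeR adjusted p = 0.381; DESeq2 adjusted p = 0.0232). Tppp3, which encodes a tubulin-binding protein, had 48.6, 47.3, 51.9 and 34.0 CPM in mutants and 80.1, 68.1, 79.5 and 58.9 CPM in controls, likewise without overlap, at a log2 fold change of -0.66 (SE 0.15; edgeR adjusted p = 0.381; DESeq2 adjusted p = 0.0211). Cep152, a centriole duplication factor, stood at 0.40 (SE 0.14) and Ccdc135, of the nexin-dynein regulatory complex, at 0.48 (SE 0.15). Rsph6a, a spoke head gene of sperm, stood at -1.41 (SE 0.40). It averaged 0.270 ± 0.132 CPM in mutants and 0.715 ± 0.175 CPM in controls (SD, n = 4 each). These levels rest on few reads: mutant 4 had 0.0743 CPM, where 1 count in that library is 0.0372 CPM. All 15 tested genes of the multiciliation group, which includes Gmnc and Cep152, had higher means in mutants, where 52.3% of all genes did. Their median was 0.19. The group's mean log2 level, less the mean of controls, was 0.095, 0.13, 0.28 and 0.49 in mutants 1 to 4. In controls 1 to 4 it was 0.17, 0.092, -0.16 and -0.10, so the P libraries of both groups were alike. Of 17 other dynein and arm assembly genes 13 had higher means (median 0.12), of 32 other spoke, central and linker genes 21 (median 0.14), and of 14 other genes of multiciliated cells 8 (median 0.03).

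Markers of the choroid plexus epithelium, a tissue that itself bears cilia, had higher means in mutants for 11 of 12 genes. Those 11 were higher at an unadjusted edgeR p under 0.05, where 6.94% of all genes were, and 10 without overlap, where 3.6% of all genes were, with a median log2 fold change of 0.85 over the 12. With adjustment over all genes, 0 passed with edgeR, where 0% of all genes did. With DESeq2, 5 were called higher, where 0.248% of all genes were. All 12 were detected, and their summed level, mostly Ttr, was 3927, 6594, 5217 and 5192 CPM in mutants 1 to 4 and 1582, 3622, 3027 and 3205 CPM in controls 1 to 4. Ttr encodes the thyroid hormone carrier that this epithelium secretes. Cldn2, one of its tight junction genes, had 17.5, 19.5, 14.3 and 19.4 CPM in mutants and 4.88, 10.8, 8.27 and 8.59 CPM in controls (log2 fold change 1.12, SE 0.21; edgeR adjusted p = 0.381; DESeq2 adjusted p = 0.00121). Otx2, a transcription factor of this epithelium, averaged 41.1 ± 6.24 CPM in mutants and 25.6 ± 2.96 CPM in controls (SD, n = 4 each). Control 1 had the highest summed level of the 37 motile cilium members and the lowest of these markers. The mean log2 level of the markers, less the mean of controls, was 0.68 to 1.12 in mutants and -0.48 to 0.47 in controls. That of the 37 members was 0.10 to 0.25 in mutants and -0.23 to 0.40 in controls. The part of choroid plexus tissue in the values of the members was not tested.

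Genes of intraflagellar transport and the primary cilium are used by ciliated cells of all kinds. Of 27, 16 had higher means in mutants, with a median log2 fold change of 0.05. By an unadjusted edgeR p under 0.05, 2 (7.41%) were higher and 1 lower, near the 6.94% and 5.7% of all genes. Ift80, of the transport complex that builds cilia, stood at 0.35 (SE 0.12) and the kinesin Kif17 at -0.52 (SE 0.19). Summed over the 27 genes the level was 1244 ± 41.1 CPM in mutants and 1234 ± 23.9 CPM in controls (SD, n = 4 each). Genes linked to ependymal cells outside the axoneme, 7 in all and partly shared with astroglia, had a median of 0.02, with 4 means higher and 3 lower. S100b averaged 30.6 ± 9.36 CPM in mutants and 44.6 ± 5.98 CPM in controls, and Aqp4, a water channel also made by astroglia, 289 ± 84.2 CPM in mutants and 411 ± 86.6 CPM in controls (SD, n = 4 each). These were the 2 genes of the list with the smallest p, and its log2 fold changes ran from -0.54 to 0.34. Both genes were lower at an unadjusted edgeR p under 0.05, where 5.7% of all genes were, and neither passed over all genes. All 7 were detected.

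**Figure D5:**
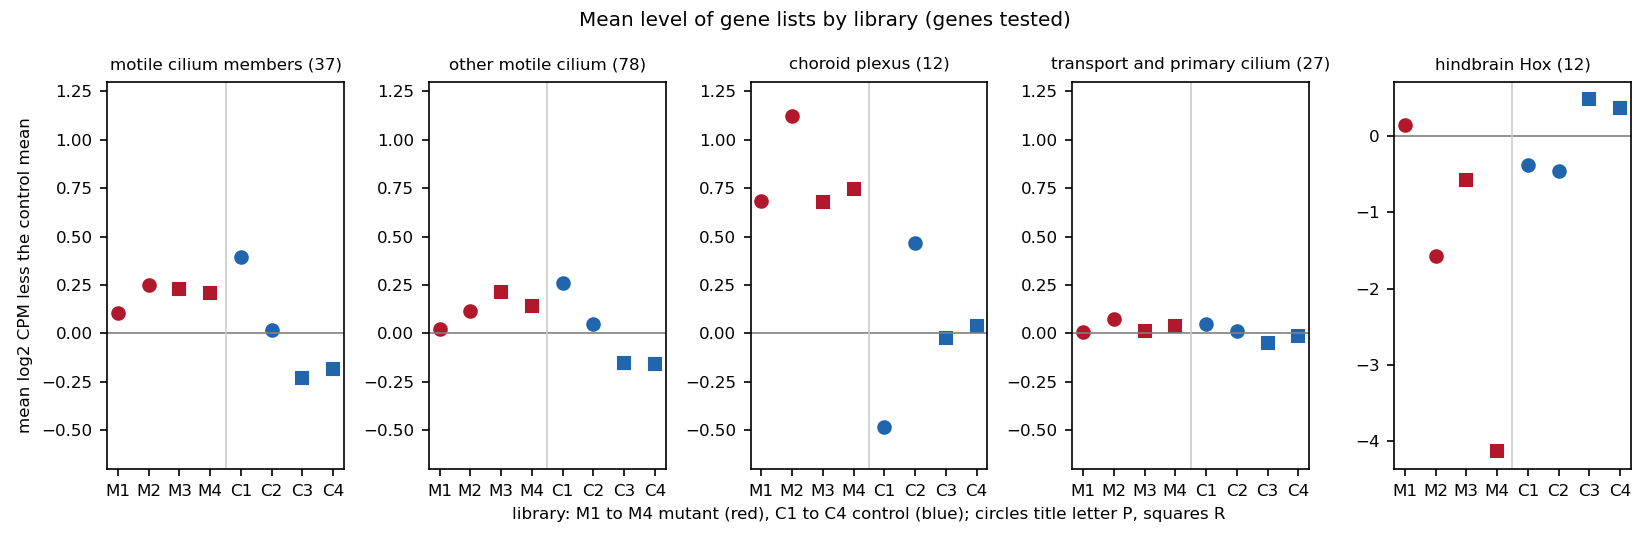
Mean log2 CPM of the tested genes of 5 lists in each library, less the mean of the 4 controls (y axis, with a wider scale for the Hox list), for mutants M1 to M4 (red) and controls C1 to C4 (blue), circles for title letter P and squares for R. Control 1 is the highest library for the motile cilium members (0.40) and the lowest for choroid plexus (-0.48), and mutant 4 is the lowest for Hox genes (-4.13).

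The promoters are shown because Rfx2 and Rfx3 are themselves members and the element they bind is known. RefSeq promoter windows (build GRCm38.p6, from 250 bases before to 50 after the start site) were matched for 32 of the 37 members. The X-box was searched on both strands as GTNNCC, any 2 bases and NGNAAC, which can overlap the shorter GTTGCC. A match was found in 8 of 32 members (25%), where 2.51% of all 26742 genes with a window had one. The shorter GTTGCC, searched alike, was in 14 of 32 (43.8%), where 14% of all genes had it, and the forkhead core GTAAACA in 2 of 32 (6.25%), where 4.06% did. Matched members were Spag16, Ccdc114, Ccdc151, Enkur, Hydin, Zmynd10, Tekt4 and Spag6, whose log2 fold changes between mutants and controls ran from 0.01 to 0.62. The stretches around the match in the 4 of these with the smallest p are given 5′ to 3′ on the strand of the gene, with the X-box match in capitals. They lie at chr1:69826837-69826910 (plus strand, Spag16), chr7:45924170-45924214 (plus, Ccdc114), chr9:22002635-22002698 (minus, Ccdc151) and chr2:21205364-21205407 (minus, Enkur).
Spag16: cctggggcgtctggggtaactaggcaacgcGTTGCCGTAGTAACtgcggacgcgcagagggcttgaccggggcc
Ccdc114: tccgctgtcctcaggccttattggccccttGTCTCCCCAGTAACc
Ccdc151: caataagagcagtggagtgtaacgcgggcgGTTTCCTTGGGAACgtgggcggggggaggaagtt
Enkur: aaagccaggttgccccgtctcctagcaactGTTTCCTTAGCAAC
The match begins 103 bases before the start site in Spag16, 15 in Ccdc114, 34 in Ccdc151 and 12 in Enkur, where it runs past the start site. Of the 8 matched members, Spag16 and Ccdc114 had an unadjusted edgeR p under 0.05, and the others had 0.136 (Ccdc151) to 0.955 (Spag6). The 4 printed here were picked by p, and a link between the match and the difference was not tested. A match of letters describes the window and does not show that a factor binds there.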

How the data were processed

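Each library came with 2 deposited tables of whole-number counts, one per gene and one per exon bin, which the authors had not normalized. The submitters' processing notes name TopHat, HTSeq, DESeq2 and mm9 without versions, and the annotation and strand setting are not given in the sources used here, so overlapping genes cannot be told apart. Summary lines naming no gene (24.8 to 34.3% of entries) were left out. Each library is 1 pup, and all within-group pairs differed by more than counting noise (chi-square per degree of freedom 7.42 to 81.0). No label says that title numbers pair mutants with controls, so the letter R or P was used as an alternative block.

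The gene test was edgeR's 4.0.16 (R 4.3.3; filterByExpr, TMM, robust quasi-likelihood F test, two-sided, genotype as the only term), with Benjamini-Hochberg adjustment over 15789 genes and a threshold of 0.05. A standard error is the log2 fold change over the root of F. List levels are mean log2 CPM (prior count 2). DESeq2 1.42.0, RLE scaling, no filter, the letter as a block, each letter alone and leaving out each library were alternatives. Exon bins with a mean of at least 10 reads went through diffSpliceDGE, with Simes p-values per gene. The steps were tested on simulated counts.

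The members, lists, motifs and the rule for named genes were chosen with earlier results of these data known. That rule took all members, Sufu, the 5 other motile cilium genes with the smallest p, and at most 2 genes of each other list by p. Ttr falls outside it, a choice made after seeing its values. Promoters were not matched for Foxj1, Rsph1, Rsph4a, Armc4 and Lrrc6.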

Additional observations from a re-analysis of the deposited data

Results flagged for a closer look

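Dixon's test flagged the end library in 5 of 74 groups of 4 libraries, each 1 member in mutants or in controls. Chance gives about 1 in 20 groups. The test reads the gap against the range of the group, so a small gap can be flagged where the rest are alike. Control 1 was the highest control for Foxj1 at 47.3 CPM and for Zmynd10 at 8.05 CPM. Mutant 3 was the highest mutant for Tekt4 at 3.62 CPM, and mutant 1 the lowest for Zmynd10 at 5.12 CPM. For Enkur, mutant 2 was the highest mutant at 7.43 CPM, with the other mutants at 7.03 to 7.06 CPM.

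The genotype effect differed between the title letters, by the interaction test adjusted over all genes, for Dnah8 (R minus P, -2.67 on the log2 scale) and Mlf1 (R minus P, 0.86 on the log2 scale).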

How the results depend on the processing

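Over 518 values of single members under other settings, 0 had an adjusted p under 0.05 (lowest 0.0911) and 58 had the opposite sign to the reported value. In 12 of 37 members the sign held under every setting. The count of members higher at an unadjusted p was 4, and 19 within R, 1 within P and 1 to 12 without single libraries. It was 2 without mutant 2, mutant 4 or control 3, 1 without control 4 and 12 without control 1. With the letter as a replicate block it was 6, where 9.89% of all genes were higher, and 0 members passed adjusted over all genes. The count lower was 0, and 1 within R, 1 within P and 0 to 1 without single libraries. The number of higher means was 31, and 15 within P, and the median log2 fold change 0.20, and -0.10 within P. Without single libraries there were 26 to 34 higher means, and the median was 0.10 (without control 3) to 0.35 (without control 1). The median of all genes was 0.0014 with RLE scaling and 0.012 with TMM.

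Signs turned within P for Foxj1 (-0.31), Dnah8 (0.86), Dnaic2 (-0.34), Dnali1 (-0.29), Spag6 (-0.26), Spag17 (-0.084), Hydin (-0.35), Tekt1 (-0.092), Tekt2 (0.18), Tekt4 (-0.18), Ccdc39 (-0.042), Ccdc40 (-0.13), Ccdc113 (-0.19), Armc4 (-0.12), Zmynd10 (-0.20), Mlf1 (-0.28), Enkur (-0.10), Ak7 (-0.24), Wdr16 (-0.21) and Tmem212 (-0.73), as log2 fold changes. Within R they turned for Dnah5 (0.080), Dnah2 (-0.055), Dnah10 (0.070), Dnaic1 (0.17) and Rsph9 (0.049). Spag6 turned with DESeq2 (-0.0022) and RLE scaling (-0.0021), and Ccdc40 with DESeq2 (-0.0073), RLE scaling (-0.0085) and the letter as a replicate block (-0.0016).

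Leaving out 1 library gave -0.43 to 0.13 for Dnah5, -0.13 to 0.17 for Dnah2, -0.16 to 0.18 for Dnah10, -0.18 to 0.032 for Dnaic1, -0.0055 to 0.28 for Dnaic2, -0.064 to 0.14 for Spag6, -0.17 to 0.021 for Tekt2, -0.066 to 0.42 for Tekt4, -0.056 to 0.19 for Ccdc39, -0.10 to 0.095 for Ccdc40, -0.018 to 0.27 for Mlf1 and -0.11 to 0.81 for Tmem212. The cause of these turns was not tested. Members hold between 6544 and 11709 counts per library in all, and the part of depth in their standard errors was not tested. Bin use gave 0 members under the stricter read minimum of 20 and with the letter as a replicate block.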
